A study of Sus scrofa with 5 samples.

Results

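The comparison described here sets an untreated split-thickness skin graft, taken 7 days after it was placed on a full-thickness wound, against unwounded skin of pigs. Both are single-cell RNA libraries of freshly isolated cells, and each side has 1 library. Its members were the cells in which at least 500 genes were detected, 8147 from the day 7 graft and 1586 from unwounded skin, which made 9733 of the 28654 such cells in the series. All 14672 gene symbols of the files were measured in the summed counts of unique molecular identifiers (UMIs), scaled to CPM (counts per 1000000). The other 3 libraries were a day 7 graft treated with an inhibitor of focal adhesion kinase (FAK) in a hydrogel, and an untreated and an inhibitor-treated graft at day 90. They are used here only to place levels side by side. The untreated graft carried no inhibitor. The unwounded skin had neither wound nor graft. Cells came from several pigs, but how many animals stand behind each library, their age and their strain were not given. A graft also brings its own epidermis and upper dermis, so the cells of a day 7 graft can come from the transplanted sheet or from the wound bed beneath it.

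A split-thickness graft is a sheet of epidermis with part of the dermis, and it heals by inflammation, ingrowth of vessels and laying down of a temporary matrix before the dermis is remodelled. In early wounds, myeloid cells clear debris and secrete cytokines, fibroblasts take on contractile and matrix-building states, and keratinocytes at the wound edge switch from differentiation to migration. Sweat and sebaceous glands and hair follicles lie partly below the plane at which such a sheet is cut.

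The 2 libraries differed in size. The day 7 graft held 73615656 UMIs in its 8147 cells, with a median of 6418 UMIs and 1938 genes per cell, and unwounded skin held 18191126 UMIs in its 1586 cells, with medians of 7430.5 and 2262. Median mitochondrial shares were 4.65% and 4.87%. Only 2 cells had the same barcode in both libraries. However, the unwounded library shared 133 barcodes with the untreated day 90 library and 152 with the inhibitor-treated day 90 library. For 123 and 147 of these, whichever library was poorer had under 5% of the UMIs that the richer had. Leaving out each barcode that was richer in another library changed the counts given below from 505 and 967 to 503 and 969 genes. With 1 library per side no test between conditions can be made, so no p-value is given. Ratios carry an exact 95% interval, given in brackets, that covers counting error alone and not the spread between animals or preparations. A gene was called higher or lower when its ratio was at least 2 or at most 0.5. It had to reach 10 CPM in either library, or 50 CPM for the genes named first and for comparisons inside one class of cells. All paired values give the day 7 graft first and unwounded skin second.

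In the whole libraries, wound myeloid and matrix-degrading genes stood highest in the day 7 graft and gland and differentiated-epidermis genes stood lowest. Of 7843 genes at 10 CPM in either library, 505 were higher in the day 7 graft (6.44%) and 967 were lower (12.3%), while 6371 lay between. The interval lay wholly beyond 2-fold for 385 of the 505 and 726 of the 967. At least 4-fold differences numbered 146 higher and 182 lower, and at least 10-fold differences 47 and 49. The median log2 ratio of the genes compared was -0.15. With the ratios centred on the median of genes at 10 CPM in both libraries, 589 were higher and 808 lower. In such sums, more cells of a type and more RNA per cell cannot be told apart.

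**Figure D1:**
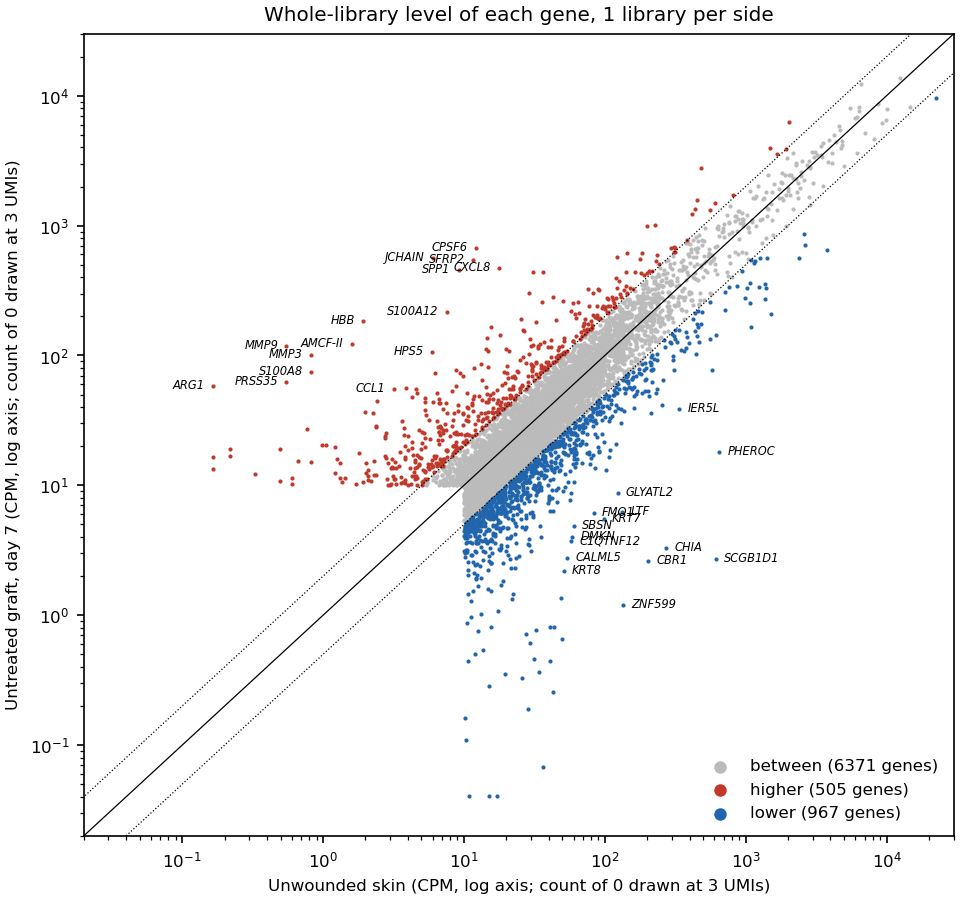
Whole-library level of each of the 7843 genes compared, unwounded skin on the horizontal and the untreated day 7 graft on the vertical axis (CPM, log axes; solid line, equal levels; dotted lines, 2-fold). The 15 highest and 15 lowest ratios among genes at 50 CPM are named: ARG1 lies at 58.3 CPM in the graft with no UMI in unwounded skin, and SCGB1D1 at 2.69 against 612 CPM.

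The highest ratios belonged first to myeloid and antimicrobial genes. ARG1, the arginase of wound macrophages that competes for arginine, had 4295 UMIs (58.3 CPM) in the day 7 graft and 0 in unwounded skin, at least 354-fold higher. MMP9, a gelatinase, stood at 118 against 0.550 CPM, 214-fold higher (116 to 446). SPP1, the secreted phosphoprotein osteopontin, stood at 454 against 9.18 CPM, 49.5-fold higher (42.5 to 57.95). These genes were concentrated in the 709 myeloid-like cells of the graft, which held 85.9% of the ARG1 UMIs, 75.0% of the MMP9 UMIs and 96.8% of the SPP1 UMIs. The calgranulins S100A8 (74.7 against 0.825 CPM, 90.6-fold) and S100A12 (216 against 7.53 CPM, 28.6-fold) were split between myeloid-like and keratinocyte-like cells. Keratinocyte-like cells held 43.7% and 53.5% of their UMIs. CXCL8, the main attractant of neutrophils, stood at 468 against 17.9 CPM, 26.2-fold higher (23.5 to 29.3), and 77.1% of its UMIs lay in myeloid-like cells. An alternative gave each of the 8 named classes with at least 20 cells in both libraries the same weight. It left out the B or plasma-like, glandular epithelial-like, Schwann-like and adipocyte-like classes and the unnamed clusters. Under this equal weighting the ratio was 24.9 for MMP9 and 2.84 for CXCL8.

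A second group of high ratios lay in fibroblast-like and keratinocyte-like cells. SFRP2, a secreted modulator of Wnt signalling, stood at 539 against 11.6 CPM, 46.5-fold higher (40.6 to 53.5), with 96.1% of its UMIs in fibroblast-like cells. PRSS35, a secreted protein of the serine protease family, stood at 62.9 against 0.550 CPM, 115-fold higher (62.2 to 239), with 96.2% there. AMCF-II, a pig CXC chemokine, stood at 122 against 1.59 CPM, 76.7-fold higher (53.3 to 115), with 75.6% there. MMP3, stromelysin 1, stood at 100.1 against 0.825 CPM, 121-fold higher (73.6 to 217), but 81.0% of its UMIs lay in keratinocyte-like cells and 17.2% in fibroblast-like cells. Thus the metalloproteinases with the highest ratios were carried by different cells.

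Other high ratios rested on few cells or on ambiguous identifiers. JCHAIN, the joining chain of secreted antibodies, stood at 566 against 6.05 CPM, 93.6-fold higher (77.6 to 114), and 96.1% of its UMIs came from 53 B or plasma-like cells. CCL1, a T cell and mast cell chemokine, stood at 55.5 against 3.19 CPM, with 96.3% of its UMIs in mast-like cells. HBB, the beta chain of haemoglobin, stood at 184 against 1.92 CPM in these cells, 95.6-fold higher, but only 2.06-fold higher when every barcode was counted. CPSF6 (677 against 12.1 CPM, 56.0-fold) encodes a factor for messenger RNA cleavage, yet 87.6% of its UMIs lay in myeloid-like cells. Its annotated neighbour in RefSeq (Sscrofa11.1) is LYZ, the lysozyme gene, which had 1 UMI in the graft and 0 in unwounded skin. HPS5 (107 against 5.94 CPM, 17.9-fold), which neighbours serum amyloid A genes, lay to 70.3% in fibroblast-like cells. Whether reads of the neighbouring genes were counted under these 2 symbols was not tested.

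The lowest ratios were led by a secretory set. SCGB1D1, a secretoglobin, stood at 2.69 against 612 CPM, 227-fold lower (198 to 263). CHIA, acidic chitinase, stood at 3.30 against 272 CPM, 82.5-fold lower (72.5 to 94.2). PHEROC, a subunit of the pig pheromone-binding protein pheromaxein, stood at 17.98 against 648 CPM, 36.1-fold lower (34.1 to 38.2). In unwounded skin 41 glandular epithelial-like cells held 99.6%, 99.8% and 99.8% of the UMIs of these genes. CBR1, a carbonyl reductase (2.62 against 204 CPM), ZNF599, a zinc finger gene (1.21 against 136 CPM), LTF, the iron-binding lactoferrin (6.28 against 133 CPM), and GLYATL2, a glycine acyltransferase (8.75 against 123 CPM), lay to 96.0% or more in the same 41 cells. The day 7 graft had 2 such cells, and they held 97.5% of its few SCGB1D1 UMIs. Such cells made up 0.0245% of graft cells and 2.59% of unwounded cells, and with 2 graft cells no comparison inside the class was made.

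The remaining low genes were epidermal, vascular or shared by many cells. CALML5 (2.76 against 54.4 CPM, 19.7-fold lower), DMKN (4.03 against 58.4 CPM, 14.5-fold lower) and SBSN (4.89 against 60.3 CPM, 12.3-fold lower) are made by differentiating keratinocytes. C1QTNF12, a secreted C1q-like protein, stood at 3.72 against 57.4 CPM, and 97.8% of its unwounded UMIs lay in keratinocyte-like cells. KRT7 (5.47 against 98.02 CPM) and KRT8 (2.19 against 51.1 CPM) are keratins of simple epithelia, and the log2 ratio of KRT7 was 1.34 under equal weighting, which leaves out the gland cells that held 98.1% of its unwounded UMIs. Of the 930 unwounded UMIs of KRT8, 336 lay in fibroblast-like cells. In that class KRT8 stood at 3.73 against 101.5 CPM, 27.2-fold lower (21.1 to 35.6). FMO1, a flavin-containing monooxygenase, stood at 6.17 against 83.4 CPM, 13.5-fold lower, with 61.8% of the unwounded UMIs in an unnamed cluster led by GPIHBP1 and 28.3% in endothelial-like cells. IER5L, a relative of an immediate early gene, stood at 38.4 against 336 CPM, 8.74-fold lower (8.36 to 9.14). IER5L was also lower inside classes of cells, where it was 9.45-fold lower in endothelial-like and 7.75-fold lower in those like pericytes or smooth muscle.

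The other 3 libraries, again 1 per group, gave the following levels for some of these genes. ARG1 had 119 CPM in the inhibitor-treated graft at day 7, 30.5 CPM in the untreated graft at day 90 and 0.399 CPM in the inhibitor-treated graft at day 90. SFRP2 had 388, 3758 and 878 CPM in the same order, so that its highest level was in the untreated day 90 graft. SCGB1D1 had 0.0127, 34.9 and 128 CPM, below the 612 CPM of unwounded skin in each. IER5L had 46.3, 114 and 229.6 CPM. No comparison between those libraries was made.

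**Figure D2:**
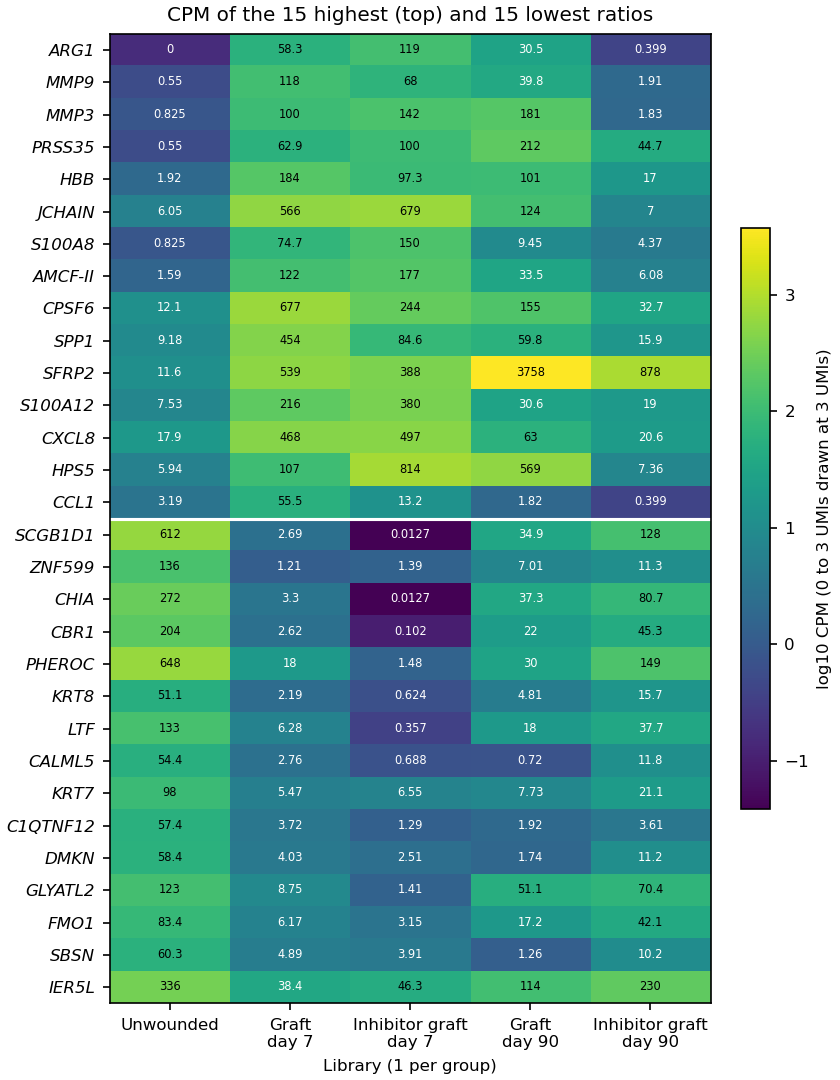
Whole-library CPM of the 15 genes with the highest and the 15 with the lowest ratios, in each of the 5 libraries (colour, log10 CPM, with counts of 0 to 3 UMIs drawn at 3 UMIs; numbers, CPM). The first and the second column hold the pair compared; SFRP2 is the brightest cell, at 3758 CPM in the untreated day 90 graft.

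Shares of cells with at least 1 UMI moved with these levels once each cell had been thinned to 2000 UMIs, which left 7042 and 1461 cells and left out 1105 and 125 shallower ones. CXCL8 was detected in 15.1% of graft cells and 0.958% of unwounded cells. SFRP2 was detected in 11.5% and 2.12% after thinning and in 15.7% and 4.04% without it. Among fibroblast-like cells of the graft 50.1% had SFRP2 after thinning, compared with 2.60% of T or NK-like cells, which should lack it (median UMIs 11480 and 2457 before thinning). ARG1 was found in 3.39% of thinned graft cells and in none of the unwounded cells. Before thinning, 0 of 1586 unwounded cells had an ARG1 UMI, and 3 such cells would be 0.189%. This limits the share of cells with a UMI, not of cells that express the gene. JCHAIN was near its background: 3.05% and 1.64% of thinned cells had it, and 7.33% of graft fibroblast-like cells held a JCHAIN UMI before thinning. IER5L was detected in 6.77% and 42.2%, and FMO1 in 1.28% and 12.5%.

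Cells were grouped into 29 clusters from both libraries together, and a cluster was given a class name only from marker genes. Among the named classes, the marker-based shares of lymphocytes, myeloid cells and gland cells differed by the largest ratios. An unnamed cluster led by GPIHBP1, described below, differed by more percentage points than any of these (1.84% and 18.5%). T or NK-like cells made up 12.3% of graft cells (1006 cells) and 1.45% of unwounded cells (23 cells). Myeloid-like cells made up 8.70% (709 cells) and 1.51% (24 cells). B or plasma-like cells numbered 53 (0.651%) and 0 of 1586, where the exact upper limit is 0.232%. Glandular epithelial-like cells made up 0.0245% and 2.59%.

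Fibroblast-like cells made up 18.6% (17.8 to 19.5) and 16.7% (14.9 to 18.6), and pericyte or smooth muscle-like cells 19.1% and 19.0%. Mast-like cells made up 5.73% and 3.72%, and keratinocyte-like cells 6.54% and 9.77%. Endothelial-like cells made up 12.7% (11.96 to 13.4) and 19.4% (17.5 to 21.5). A further cluster, led by GPIHBP1, BTNL9, RBP7, CD36 and FABP4, held 1.84% of graft and 18.5% of unwounded cells. Its endothelial markers were raised, but FABP4 also marks adipocytes, so it was left unnamed. Other clusters left unnamed included one led by ADGRF4 and HIGD1B (5.16% and 1.45%), one led by the cell division genes CENPF, UBE2C and TOP2A (191 and 11 cells) and one led by CCR7, a homing receptor of mature dendritic cells (133 and 7 cells). Clustered alone, the 2 libraries gave myeloid-like shares of 6.53% and 3.59%, and no T or NK-like cluster in unwounded skin. The unwounded myeloid-like cluster of 57 cells also scored for T or NK markers, with GNLY and CCL5 among its leading genes. In the graft, a cluster of 166 cells led by ARG1 scored highest for myeloid markers but was left unnamed. These 2 shares therefore do not cover like sets of cells. At a coarser clustering, endothelial-like cells made up 15.6% and 39.8%, and most unwounded fibroblast-like cells lay in a cluster without a name.

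**Figure D3:**
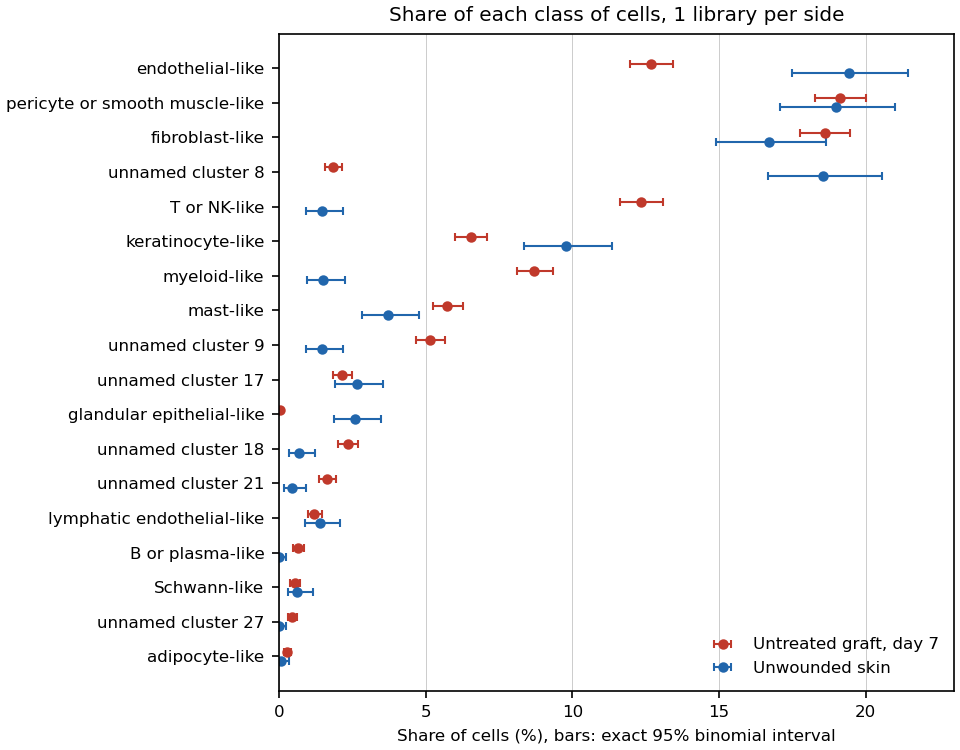
Share of cells in each class (horizontal axis, %) in the untreated day 7 graft (red) and unwounded skin (blue), with exact 95% binomial intervals for 8147 and 1586 cells. T or NK-like cells lie at 12.3% and 1.45%, and the unnamed cluster 8 at 1.84% and 18.5%.

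Fibroblast-like cells of the 2 libraries did not share clusters. Those of the graft lay in a cluster led by CRABP1 and GREM1 (51.3%), one led by PRSS35 and TGFBI (24.4%) and one led by SFRP4 and THBS4 (24.2%). Of those from unwounded skin 95.1% lay in a separate cluster led by CPZ, MYOC and FBLN1. Endothelial-like cells were also divided: 87.9% of those of the graft lay in a cluster led by CSF3, and 82.5% of those of unwounded skin in one led by CCL26 and ACKR1. A cluster that comes mostly from 1 library may reflect that library rather than a type of cell. Pericyte or smooth muscle-like, keratinocyte-like and mast-like cells of both libraries lay in common clusters at this resolution. At Leiden resolution 2 the pericyte or smooth muscle-like clusters divided as well: one held 7 graft and 127 unwounded cells, and 3 others held 509 and 8, 223 and 8, and 189 and 2.

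Gene groups from 35 lists were then read in the whole libraries, in the order of matrix, signals, immune cells, epidermis, vessels and cell state. Over all genes compared there, 6.44% were higher and 12.3% lower, and counts near these shares do not set a list apart. Of the genes of the provisional wound matrix, the temporary scaffold of fibronectin and matricellular proteins, 10 of 16 were higher and none was lower (median log2 ratio 1.36, or 0.74 under equal weighting). TNC, tenascin C, stood at 166 against 15.6 CPM, 10.7-fold higher (9.48 to 12.04). CTHRC1, a secreted protein of collagen-building fibroblasts, stood at 257 against 35.8 CPM, 7.17-fold higher (6.63 to 7.77), and FN1, fibronectin, at 1219 against 418 CPM, 2.91-fold higher. The collagens of dermis did not follow: 3 of 13 were higher and 2 lower (median 0.43). COL1A1, the main collagen of dermis, stood at 9638 against 22503 CPM, 2.33-fold lower (2.33 to 2.34), while COL11A1, a minor fibrillar collagen, stood at 27.7 against 3.74 CPM, 7.41-fold higher. The summed level of the 13 collagens was 30450 and 50859 CPM.

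Other matrix groups were mixed. For collagen processing and crosslinking, 3 of 14 were higher and none lower (median 0.70), led by PLOD2, a lysyl hydroxylase, at 42.9 against 6.71 CPM. For the basement membrane, 0 of 15 were higher and 2 lower (median 0.06), the latter near the share of all genes called lower. For markers of fibroblasts of unwounded dermis, 3 of 23 were higher and 11 lower (median -0.99). The 3 were SFRP2, the complement gene C7 and SFRP4, and among the 11 CLEC3B, tetranectin, stood at 355 against 1369 CPM. For matrix proteases and inhibitors, 7 of 20 were higher and 3 lower (median 0.43). TIMP1, the inhibitor of metalloproteinases, stood at 2758 against 485 CPM, 5.69-fold higher (5.57 to 5.81), whereas TIMP3 was 2.76-fold lower and TIMP4 5.85-fold lower. The contractile genes had 3 of 15 higher and 1 lower (median 0.12), with ACTA2, smooth muscle actin, at 1288 against 896 CPM.

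Among signalling groups, the inflammatory cytokine list and the interferon response list went different ways. Of the inflammatory cytokines, 10 of 14 were higher and none lower (median 2.33, or 0.65 under equal weighting), among them IL10, an anti-inflammatory cytokine (44.9 against 2.42 CPM, a ratio of 1.98 under equal weighting), CSF2, a myeloid growth factor (35.96 against 2.25 CPM), and IL11, a stromal cytokine of the IL6 family (28.01 against 2.36 CPM). Of the chemokines, 8 of 13 were higher and 3 lower (median 1.82, or 0.69 under equal weighting). CCL5, a T cell attractant, stood at 441 against 30.8 CPM, and CCL26, an eosinophil attractant, was 7.87-fold lower. Of the interferon response genes, 1 of 24 was higher and 11 were lower (median -0.85). The 1 was ISG20, a nuclease (16.3 against 2.80 CPM), and DDX58, a sensor of viral RNA, was 6.33-fold lower. However, the interferon-induced chemokines CXCL9, CXCL10 and CXCL11 had whole-library ratios of 3.54, 3.68 and 19.5, so the list does not stand for all interferon targets. Interferon genes were divided under equal weighting. DDX58, IRF1 and OAS1 stayed under a ratio of 0.5 (0.268, 0.394 and 0.476). IFIT1, RSAD2 and OAS2 went from 0.366, 0.280 and 0.457 to 0.700, 0.637 and 0.640. Antigen presentation had 1 of 10 higher and 1 lower (median -0.15).

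The pathway lists related to mechanical and growth factor signalling differed little. TGF-beta, activin and BMP genes had 3 of 17 higher and 3 lower (median 0.19): GREM1, a BMP antagonist, INHBA, the activin A subunit, and FSTL3, an activin antagonist, against BMP4, BMP2 and SMAD7. YAP/TAZ and focal adhesion genes had 1 of 21 higher, the integrin ITGAV, and 2 lower, CCDC80 and AJUBA (median -0.04). PTK2, which encodes FAK, stood at 51.4 against 54.3 CPM.

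Most immune lists had more higher than lower members, beside the larger shares of immune cells given above. Wound myeloid genes had 13 of 18 higher and 1 lower (median 1.45). The 1 was APOE, the lipid carrier, at 566 against 1416 CPM. Tissue macrophage genes had 7 of 13 higher and none lower (median 1.01), led by CD163, a haemoglobin scavenger receptor, at 38.1 against 5.33 CPM. T and NK cell genes had 8 of 12 higher and none lower (median 1.87), led by IL7R, the interleukin 7 receptor, at 26.98 against 0.770 CPM. B and plasma cell genes had 2 of 4 higher (median 1.85), and mast cell genes 3 of 5 higher and 1 lower (median 1.7). Neutrophil genes had 2 of 3 higher and 1 lower (median 4.84), and the higher ones were S100A8 and S100A12, which lay largely in myeloid-like and keratinocyte-like cells. Under equal weighting the medians were -0.99 for tissue macrophage, -0.27 for T and NK cell, 0.26 for wound myeloid and 0.06 for mast cell genes, where the unwounded side rests on 24 myeloid-like and 23 T or NK-like cells. CD163 then had a ratio of 0.719. The B or plasma-like class has no unwounded cells and could not be weighted. The red blood cell list had 1 member at 10 CPM, HBB, and its summed level was 187 and 3.08 CPM.

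The epidermal lists differed in direction. Of the differentiated keratinocyte genes, 0 of 11 were higher and 9 lower (median -2.10), with KRT10, a keratin of the spinous layer, at 252 against 1078 CPM, 4.28-fold lower (4.19 to 4.36). Basal and wound keratinocyte genes had 3 of 14 higher and 3 lower (median -0.28). The higher ones were EREG and AREG, ligands of the EGF receptor, at 20.3 against 0.989 CPM and 143 against 17.9 CPM, and S100A2. HBEGF, another such ligand, had a ratio of 0.744. KRT15, a keratin of quiescent basal and follicle cells, was 7.45-fold lower. The 4 hair follicle and gland genes compared were all lower (median -4.77). Schwann cell and melanocyte genes had 0 of 3 higher and 1 lower (median -0.69), and adipocyte and skeletal muscle genes 2 of 3 higher (median 1.02).

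The vascular lists differed between endothelial and pericyte genes. Endothelial identity and activation genes had 1 of 16 higher and 10 lower (median -1.04), and angiogenic endothelial genes 2 of 17 higher and 6 lower (median -0.46). Pericyte genes had 4 of 13 higher and none lower (median 0.49). Endothelial-like cells and the unnamed cluster 8 together were a smaller part of the graft library than of the unwounded one, as given above. Under equal weighting the median was -0.03 for endothelial identity and activation and 0.06 for angiogenic endothelial genes, and CDH5, a cadherin of endothelial junctions, went from a ratio of 0.476 to 1.51.

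Lists of cell state differed most for the immediate early genes, which are transcribed within minutes of a stimulus. None of 16 was higher and 11 were lower (median -1.23), with FOS at 653 against 3788 CPM, 5.80-fold lower (5.74 to 5.87), and EGR1 5.04-fold lower. Heat shock genes had 1 of 9 higher and 2 lower (median -0.05). Cell cycle genes had 6 of 14 higher and none lower (median 0.73, or -0.16 under equal weighting), hypoxia and glycolysis genes 2 of 17 and 1 (median 0.57), and genes of endoplasmic reticulum (ER) secretion and stress 4 of 18 and 1 (median 0.47). Oxidative phosphorylation genes had 1 of 15 higher (median 0.47). Prostaglandin, retinoid and hormone metabolism genes had 4 of 10 higher and 3 lower (median 0.45), the lowest being ALDH1A1, a retinoic acid-forming enzyme, at 1.36 against 48.9 CPM.

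**Figure D4:**
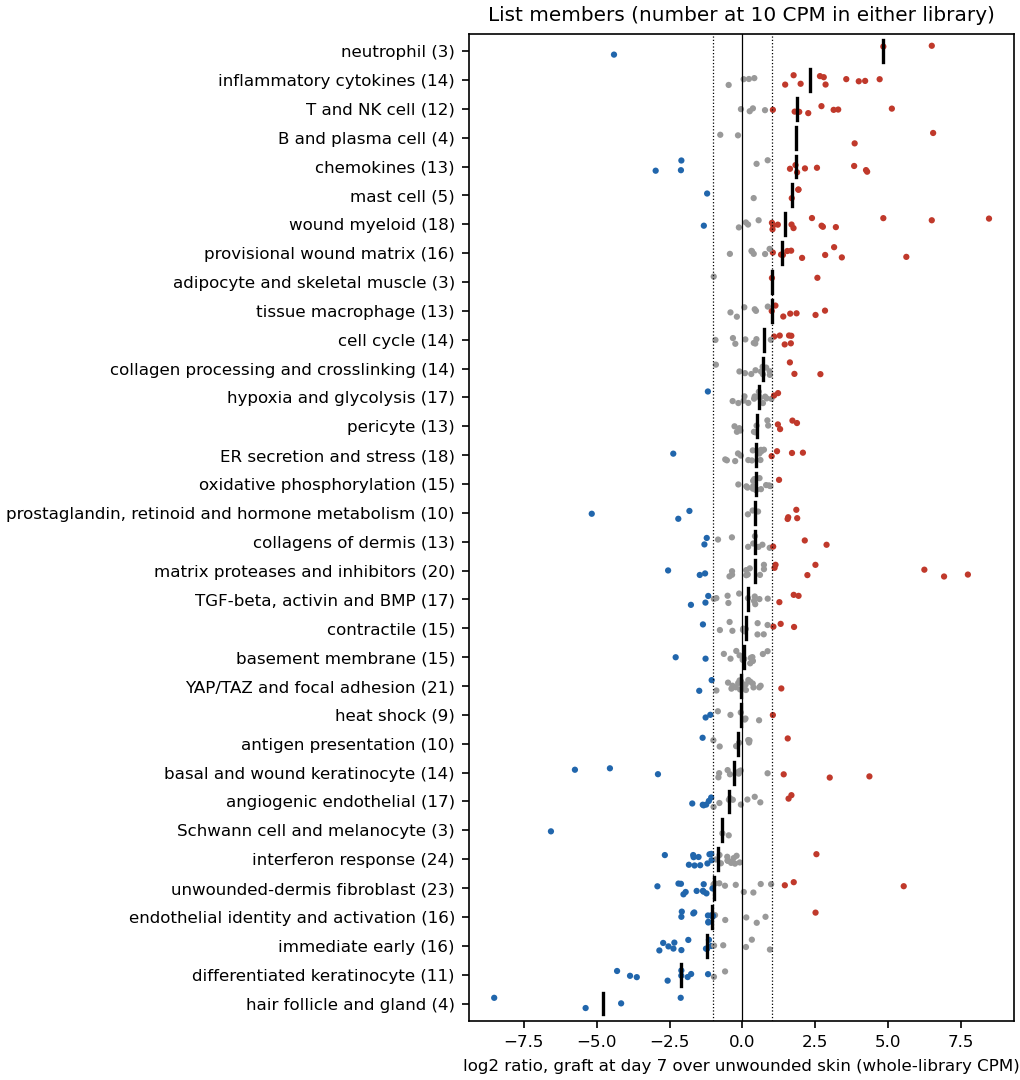
Log2 ratio of the day 7 graft over unwounded skin (horizontal axis, whole-library CPM) for each member of the 34 lists with at least 3 members at 10 CPM; red, at least 2-fold higher, blue, at least 2-fold lower, grey, between, black bar, list median. Inflammatory cytokines (median 2.33) lie right of 0 and immediate early genes (median -1.23) and differentiated keratinocyte genes (median -2.10) left of it.

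Comparisons inside a class set aside the number of cells of that class. Their CPM are shares of the summed UMIs of the class, not levels per cell. The median log2 ratio of all genes compared was 0.30 in fibroblast-like, 0.14 in keratinocyte-like and 0.15 in endothelial-like cells. It was -0.01 in pericyte or smooth muscle-like and -0.34 in mast-like cells. In fibroblast-like cells the 13 dermal collagens summed to 98806 against 268580 CPM, and such a difference shifts the shares of all other genes. In fibroblast-like cells 402 of 2365 genes at 50 CPM were higher (17%) and 246 lower (10.4%), with the clusters of the 2 libraries nearly disjoint as described. Contractile genes were higher in 6 of 7 and lower in none (median log2 ratio 2.08). ACTA2 stood at 379 against 25.1 CPM, 15.1-fold higher (12.2 to 19.02), and TAGLN, transgelin, at 827 against 60.4 CPM, 13.7-fold higher. In the 3 graft clusters ACTA2 had 155, 737 and 354 CPM, each above the 23.9 CPM of the unwounded cluster. As a share of its own whole-library level, ACTA2 in fibroblast-like cells was 29.5% and 2.80%, and that of the pericyte gene RGS5 was 7.66% and 2.64%.

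Collagen genes and wound matrix genes went different ways in fibroblast-like cells. Type I collagen was the lower one: COL1A1 stood at 33488 against 120730 CPM, 3.61-fold lower (3.59 to 3.62), and COL1A2, its partner chain, was 2.80-fold lower. Of the 13 dermal collagens 2 were higher and 4 lower (median -0.34). Of the wound matrix genes 5 of 15 were higher and 1 lower (median 0.72). TNC stood at 457 against 27.5 CPM, 16.6-fold higher (13.5 to 20.7), ADAM12, a metalloprotease of activated stroma, was 8.18-fold higher, and CTHRC1 stood at 911 against 170.4 CPM. The lower one was SPARC, a collagen-binding matricellular protein, at 7590.4 against 16822 CPM.

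Markers of unwounded dermis were lower in 13 of 21 and higher in 2 (median -1.51). CLEC3B stood at 133 against 2112 CPM, 15.9-fold lower (15.2 to 16.6), and APOD, a lipocalin of resting dermal fibroblasts, was 9.80-fold lower. SFRP2 went the other way, at 1975 against 50.1 CPM, 39.4-fold higher (33.8 to 46.1), with 435, 1644 and 5331 CPM in the 3 graft clusters and 52.3 CPM in the unwounded one. It was thus uneven among graft fibroblasts and highest in the cluster led by SFRP4. The lowest ratio among genes at 50 CPM in this class was that of MYOC, myocilin, with 5 and 658 UMIs, 768-fold lower.

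Secreted signals were higher in fibroblast-like cells. Inflammatory cytokines were higher in 7 of 8 (median 1.65), with IL11 at 57.3 against 3.32 CPM, 17.2-fold higher (9.60 to 34.6). Chemokines were higher in 4 of 6 and lower in 1 (median 1.97), with CXCL14 at 2186 against 313 CPM and CXCL8 at 193 against 1.81 CPM, the latter from 3732 and 6 UMIs. AMCF-II stood at 352 against 2.72 CPM and PRSS35 at 231 against 2.11 CPM. CCL5, a gene of lymphocytes, stood at 50.6 against 0.604 CPM, which is 11.5% of its whole-library level in the graft, beside 6.86% for the T cell gene CD3E, and the part of RNA from other cells in it was not tested. HBB had 1458 and 1 UMIs in these cells, and 160 CPM in the largest graft cluster.

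ER secretion and stress genes were higher in 7 of 16 and lower in 1 (median 0.66), led by CRELD2 and MANF, secreted ER stress proteins, at 5.48-fold and 5.34-fold. Oxidative phosphorylation genes were higher in 3 of 15 (median 0.91), a share near that of all genes called higher in this class. Immediate early genes were lower in 8 of 12 and higher in none (median -1.48). TGF-beta, activin and BMP genes had 3 of 11 higher and 2 lower. YAP/TAZ and focal adhesion genes had 3 of 17 higher, again near the share of all genes called higher in this class, and 1 lower.

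In keratinocyte-like cells 272 of 2550 genes were higher (10.7%) and 232 lower (9.1%). The 533 graft and 155 unwounded cells lay in a basal cluster led by S100A2, COL17A1 and KRT15 (91.4% and 60.0%) and a differentiated one led by KRT1 and KRT10 (8.63% and 40.0%). Interferon response genes were higher in 7 of 9 and lower in none (median 3.77), opposite in sign to their whole-library median. IFI6, an interferon-induced mitochondrial protein, stood at 769 against 12.2 CPM, 63.01-fold higher (45.04 to 91.1). ISG15, a ubiquitin-like modifier, stood at 683 against 50.97 CPM, 13.4-fold higher (11.3 to 15.96), and MX1, an antiviral GTPase, was 26.02-fold higher. In the basal cluster alone IFI6 had 820 and 11.9 CPM.

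Antigen presentation genes were higher in 6 of 6 (median 2.86), among them the immunoproteasome subunits PSMB8 and PSMB9 (25.6-fold and 18.2-fold). Graft keratinocyte-like cells also held more RNA of other cell types. LUM, a fibroblast proteoglycan, stood in them at 5.53% of its whole-library level and at 0.945% in unwounded skin, and PECAM1, an endothelial gene, at 5.04% and 0.285%. IFI6 stood at 65.1% and 0.867%, and ISG15 at 123% and 4.90%, above those values in the graft. SLA-DQB1, a class II chain of professional antigen-presenting cells, stood at 15.7%, nearer to them. The dermal collagens, higher in 6 of 10 (median 1.97), stood at the level of LUM, with COL1A1 at 7.71%, and are not read as keratinocyte expression.

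Matrix proteases and inhibitors were higher in 7 of 13 and lower in 2 (median 1.47). MMP3 stood at 793 against 1.08 CPM, 736-fold higher (252 to 3570.2), on 3 UMIs in unwounded skin. MMP13, a collagenase, stood at 126 against 1.08 CPM and MMP9 at 126 against 0 CPM, at least 117-fold higher. EREG stood at 152 against 1.44 CPM and AREG was 6.07-fold higher. Basal and wound keratinocyte genes were higher in 5 of 12 and lower in 1 (median 0.55). The basal keratins themselves lay close: KRT5 stood at 15520 against 15150 CPM and KRT14 at 18993 against 20801 CPM, while KRT15 stood at 739 against 3775 CPM.

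Inflammatory signals in keratinocyte-like cells were higher too. Cytokines were higher in 5 of 5 (median 3.0), with PTGS2, the inducible prostaglandin synthase, at 412 against 51.3 CPM. IL6, another of the 5, stood at 6.48% of its whole-library level in the graft, near that of LUM and PECAM1. Chemokines were higher in 3 of 5 (median 2.37), with CXCL10, a chemokine for T cells that interferon induces, standing at 478 against 1.44 CPM, 333-fold higher (130 to 1223). S100A8 was 98.8-fold higher and S100A12 22.9-fold higher. GPRL15, listed as GPR15LG in the gene name table, had 1359 and 0 UMIs, at least 168-fold higher. Basement membrane genes were higher in 5 of 9 (median 1.05).

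The differentiation programme was the lower side in keratinocyte-like cells. Differentiated keratinocyte genes were lower in 9 of 12 and higher in none (median -1.68), with CALML5 16.8-fold lower and KRT10 3.46-fold lower. The differentiated cluster made up a smaller part of the graft cells, and in the basal cluster alone KRT10 had 551 and 325 CPM, the other way round. The hair keratins KRT85, KRT25 and KRT31 had 0 UMIs in the graft and 306, 241 and 190 in unwounded skin. Immediate early genes were lower in 11 of 14 (median -1.74).

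In endothelial-like cells 268 of 2701 genes were higher (9.92%) and 222 lower (8.22%), again between nearly separate clusters. Interferon response genes were lower in 8 of 16 and higher in none (median -0.80), with MX1 3.17-fold lower and IRF1, an interferon-regulated transcription factor, 2.91-fold lower. Basement membrane genes were higher in 5 of 10 (median 1.02), with COL4A2, a type IV collagen chain, at 1313 against 528 CPM and NID1, nidogen, 3.92-fold higher. PLAU, the urokinase activator of plasminogen, stood at 1212 against 74.8 CPM, 16.2-fold higher (14.2 to 18.6). CSF3, the granulocyte growth factor, stood at 646 against 48.6 CPM, 13.3-fold higher (11.2 to 15.8).

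Vessel genes differed little as lists. Angiogenic genes were higher in 3 of 12 (median 0.15): ESM1, a tip cell proteoglycan (69.7 against 1.38 CPM), the insulin receptor INSR (3.95-fold) and the VEGF receptor KDR (2.59-fold). The whole-library ratio of ESM1 was far smaller. It rose to 20.4 without the unnamed clusters and to 41.6 under equal weighting, which also leaves them out. How far the ESM1 value of this class depends on which unwounded cells were named endothelial-like was not tested. Identity and activation genes were higher in 1 of 14 and lower in 3 (median -0.18). The 1 was LYVE1, a hyaluronan receptor of lymphatic and some blood vessels, at 65.7 against 1.03 CPM, and the lower ones were CD36, ACKR1 and ICAM1. ADIRF, an adipogenesis regulatory factor, stood at 47.5 against 1517 CPM, 31.9-fold lower (28.4 to 35.98), the lowest ratio of the class. Immediate early genes were lower in 11 of 14 and higher in 1 (median -1.52). Counting the unnamed cluster 8 as endothelial gave 212 higher and 228 lower genes.

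The pericyte or smooth muscle-like class had 215 of 2780 genes higher (7.73%) and 279 lower (10%). Here the contractile genes did not move as a list, with 2 of 15 higher and 2 lower (median -0.08). ACTA2 stood at 5822 against 6169 CPM, ACTG2, enteric smooth muscle actin, was 3.23-fold higher, and LMOD1, an actin nucleator of smooth muscle, was 3.86-fold lower. Wound matrix genes were higher in 6 of 9 (median 1.46) and dermal collagens in 5 of 11 (median 0.99). POSTN, periostin, stood at 301 against 14.3 CPM, 21.1-fold higher (14.6 to 31.8), but at 14.4% and 0.894% of its whole-library level, close to the 13.2% and 2.31% of LUM. COL6A3, a type VI collagen chain, stood at 1096 against 342 CPM, which is 117% and 53.8% of its whole-library level.

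Chemokines were higher in 5 of 7 and lower in 1 (median 2.39) in the pericyte or smooth muscle-like class. CCL19, which draws T cells and dendritic cells through CCR7, had 3781 against 750.1 CPM, 5.04-fold higher (4.78 to 5.31). CXCL9, an interferon-induced chemokine, had 1658 and 0 UMIs, at least 98.7-fold higher. CXCL9 and FAM167B were among the leading genes of the main endothelial-like cluster of the graft. FAM167B stood at 51.6 against 0.509 CPM in the pericyte or smooth muscle-like class. Inflammatory cytokines were higher in 3 of 5, and PTGES, prostaglandin E synthase, stood at 94.9 against 4.07 CPM. PLAT, the tissue plasminogen activator, stood at 80.6 against 8.66 CPM, while in the whole libraries it was 2.43-fold lower. It was also among the leading genes of the main endothelial-like cluster of unwounded skin. The part of RNA from other cells in the CXCL9, FAM167B and PLAT values was not tested. Among the lowest genes were PAPPA2, a protease of IGF-binding proteins (2.91 against 63.7 CPM), and ANGPT4, an angiopoietin (5.46 against 54.5 CPM). Immediate early genes were lower in 9 of 14 (median -1.13).

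Mast-like cells gave the least depth, with 158487 UMIs in 59 unwounded cells, so that 50 CPM there is 7.92 UMIs. Of 2860 genes 289 were higher (10.1%) and 679 lower (23.7%), and the interval lay wholly beyond 2-fold for 75 and 196 of them. Of the mast cell genes none of 7 was higher and 3 were lower, with MS4A2, a chain of the IgE receptor, at 6183 against 5546 CPM. Immediate early genes were lower in 11 of 13 (median -2.17), with FOS at 906 against 7925 CPM. CSF2 had 716 and 0 UMIs, at least 16.3-fold higher, and SUCNR1, the succinate receptor, 968 and 0, at least 22.1-fold higher. BCL2A1, an anti-apoptotic BCL2 relative, stood at 745 against 25.2 CPM, 29.5-fold higher (11.5 to 108). The 5 highest ratios of this class also held the pericyte gene RGS5 (372 and 1 UMIs, 25.5-fold) and ADAMTS4 (262 and 1 UMIs, 17.9-fold). The part of RNA from other cells in the mast-like values was not tested.

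**Figure D5:**
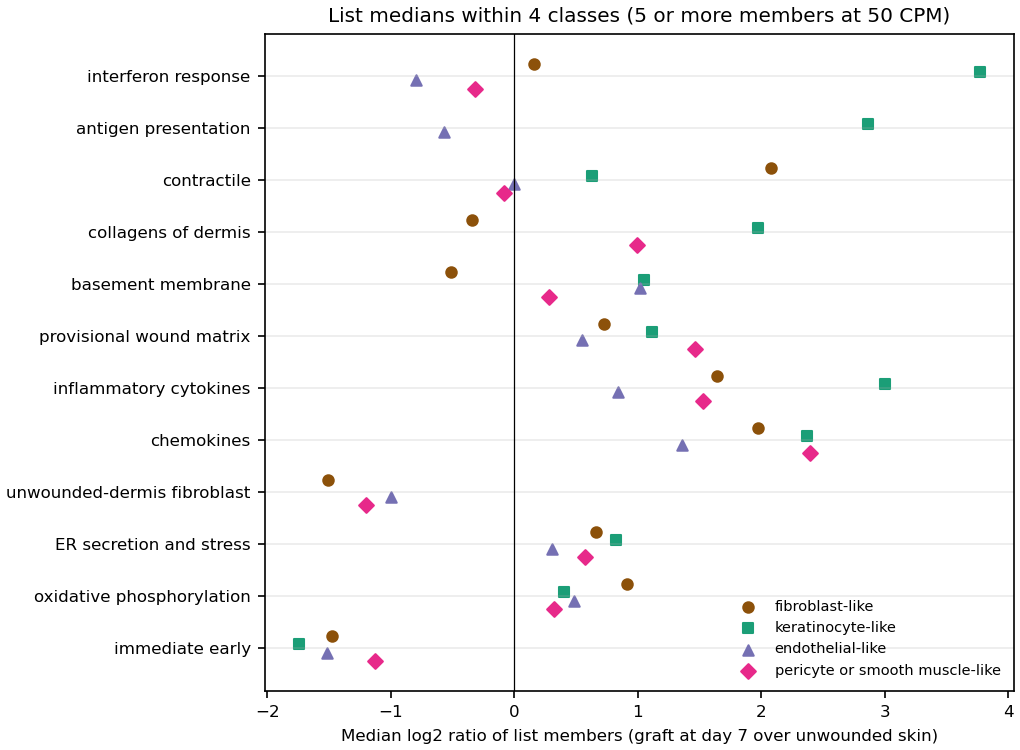
Median log2 ratio (horizontal axis) of 12 lists inside fibroblast-like, keratinocyte-like, endothelial-like and pericyte or smooth muscle-like cells, where at least 5 members reached 50 CPM. Immediate early genes lie left of 0 in all 4 classes (-1.74 to -1.13), and interferon response genes lie at 3.77 in keratinocyte-like and -0.80 in endothelial-like cells.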

How the data were processed

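Pig skin and graft cells were profiled with droplet single-cell RNA sequencing (10x Genomics 3' chemistry) in 5 libraries, 1 per group, and 2 of these were compared. The authors deposited raw UMI counts per gene and cell. Cell Ranger and Seurat 3.1.1 are named in the submitters' processing notes, and the genome build was not given in the sources used here. Of 20286 gene identifiers 14674 carried a symbol, and these took 83.2% and 84.8% of the UMIs of the 2 libraries. Reads of near-identical or overlapping genes may be split or shared between symbols.

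Counts of cells with at least 500 genes were summed per library or class and scaled to CPM over all genes. Intervals for levels are exact Poisson, for ratios exact conditional binomial and for shares Clopper-Pearson, at 95%. UMIs are counted molecules, so these cover counting error only. A bound ("at least") sets a count of 0 at 3 UMIs per library. No test between groups is possible with 1 library per side. Cells of both libraries were clustered together in Scanpy 1.11.5 (2000 variable genes, 30 components, 20 neighbours, Leiden resolution 1, no batch integration), and clusters were named "-like" from 124 measured markers of 17 classes. A class needed 50 cells in each library to be compared. Scrublet called 1 and 4 doublets automatically, which is too few to be used, so no doublet was removed in the main values. An alternative removed the 531 and 20 highest scores together with 57 and 25 cells over 25% mitochondrial counts. Scripts recovered 100 of 100 genes raised 4-fold in counts simulated for the whole-library comparison.

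Genes were drawn by a rule: the 15 highest and 15 lowest ratios at 50 CPM in whole libraries, the 5 of each in a class, and at most 5 members of a list plus those needed to describe the rest. Of the 5 highest and 5 lowest in a class, only some are given in the text. The members, the 35 gene lists (646 genes, 545 measured), the markers and the rules were chosen with earlier results of these data known. The 5612 identifiers without a symbol were left out of the comparisons. Alternatives changed the cells kept, the scaling, the level minimum, the fold, the weight of classes, the thinning depth and the clustering.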

Additional observations from a re-analysis of the deposited data

Results flagged for a closer look

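A few gene lists moved in opposite ways in different classes of cells. None of these differences was tested, since each side has 1 library. Interferon response genes had a median log2 ratio of 3.77 in keratinocyte-like cells (7 of 9 higher) and -0.80 in endothelial-like cells (8 of 16 lower), a difference of 4.57. Antigen presentation genes had 2.86 in keratinocyte-like cells (6 of 6 higher) and -0.57 in endothelial-like cells (0 of 9 past 2-fold in either direction), a difference of 3.43. Contractile genes had 2.08 in fibroblast-like cells (6 of 7 higher) and -0.08 in the pericyte or smooth muscle-like class (2 of 15 higher, 2 lower), a difference of 2.16. Dermal collagens had 1.97 in keratinocyte-like and -0.34 in fibroblast-like cells, a difference of 2.31, and basement membrane genes 1.05 and -0.51 in the same classes, a difference of 1.56. The keratinocyte-like medians of these matrix lists include genes at the background level given for LUM and PECAM1.

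Identifiers that carry no symbol in the files also held signal in the day 7 graft. Of 847 such identifiers at 10 CPM in either library, 91 were higher (10.7%) and 127 lower (15.0%). Among genes with a symbol these shares were 6.44% and 12.3%. Among those that the gene name table names, SLAMF7, a receptor of lymphoid and plasma cells, stood at 53.5 CPM against 3.85 in unwounded skin, and TMEM176B, a myeloid membrane protein, at 63.8 against 15.1. PDPN, podoplanin of lymphatic vessels and activated fibroblasts, stood at 116 against 29.8 CPM and ZGPAT at 183 against 74.5 CPM. HOMER3 stood at 50.8 against 23.5 CPM, IGFBP6 at 213 against 98.7 CPM and COPS9 at 473 against 226 CPM. On the lower side CPHL1 stood at 8.44 against 542 CPM, TNXB at 20.8 against 81.7 CPM and AQP1 at 134 against 446 CPM.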

How the results depend on the processing

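With 1 library per side no replicate could be left out. No paired analysis was possible because each group has a single library and no replicate numbers are shared. The counts of 505 higher and 967 lower genes moved by over 1.5 times under these settings: a minimum of 1 CPM gave 875 and 1993, a minimum of 50 CPM gave 235 and 294, a 1.5-fold threshold gave 1077 and 1987, and a 3-fold threshold gave 235 and 350. With each of 8 classes weighing the same, 298 were higher and 721 lower. Within classes, a minimum of 20 CPM gave 419 and 452 in endothelial-like, 617 and 477 in fibroblast-like, 450 and 543 in keratinocyte-like, 337 and 596 in pericyte or smooth muscle-like and 505 and 1281 in mast-like cells. These lower minimums admit more genes, which have fewer UMIs each. Median log2 ratios that changed sign were those of tissue macrophage genes (-0.99) and T and NK cell genes (-0.27) with classes weighing the same, and of adipocyte and skeletal muscle genes at 1 CPM (-0.61). The log2 ratio of KRT7 was 1.34 with classes weighing the same, which leaves out the gland cells that held most of its unwounded UMIs. The causes of these changes of sign were not tested. Of 385 list medians recomputed, 17 had the other sign, and 14 of these belong to lists whose main median lies within 2-fold, such as antigen presentation (0.37 without the clusters that have no name), angiogenic endothelial (0.06), basal and wound keratinocyte (0.44) and cell cycle genes (-0.16), the last 3 with classes weighing the same. That weighting leaves out classes with under 20 cells in a library, the glandular epithelial-like and B or plasma-like cells among them. Of 270 ratios recomputed for only the genes with the highest and lowest whole-library ratios, 1 had the other sign, that of KRT7. Members of the gene lists were not part of this count. Some of them changed direction with classes weighing the same. CD163 went from a ratio of 7.14 to 0.719, C1QB from 3.12 to 0.293 and CDH5 from 0.476 to 1.51, and the cause was not tested. Fibroblast-like cells could not be compared at Leiden resolution 0.5, where under 50 unwounded cells had that name. Without the clusters that have no name, an alternative added after seeing the data, 489 were higher and 999 lower. Depth limits the mast-like comparison most.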
